A study of Drosophila melanogaster with 8 samples.

Results

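Tag clusters (TCs), the sites at which transcripts start, were examined on the fourth chromosome (chr4) of Drosophila melanogaster S2 cells, a line derived from embryos. Cap analysis of gene expression (CAGE) reads the first bases of capped RNAs, and each tag marks the base pair and strand at which a transcript began. Positions with at least 2 tags in any library were merged within 20 bp on the same strand, positions under 0.1 of the summit's pooled tags were dropped, and the rest were merged again. A TC was kept when its mean over the 8 libraries reached 0.5 TPM, tags scaled to 1e6 tags of the library. This gave 536 TCs on chr4, 258 on the plus and 278 on the minus strand, out of 39028 TCs at that level and 688364 called in all. The rule uses the mean over all libraries and not the difference between groups. The study treated S2 cells with double-stranded RNA and harvested them 4 days after the first treatment. Its control cells received double-stranded RNA against GFP, and its exosome knockdown cells received it against Dis3 and Rrp6. Of the 8 libraries, 4 are labelled control and 4 are labelled exosome knockdown. The study's own table of expression names these libraries the other way round, as described below. No other allele or agent is given for either group.

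The fourth, or dot, chromosome is the smallest autosome of the fly. Its genes lie among transposon remnants in chromatin that carries HP1a and methylated H3K9, marks of heterochromatin, and yet many of them are transcribed. The protein POF coats this chromosome. The RNA exosome degrades RNAs from their 3′ ends, with Dis3 and Rrp6 as its nucleases, and its known targets in the nucleus include the short antisense RNAs that start upstream of promoters (promoter upstream transcripts, PROMPTs).

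The labels of the groups run opposite to the study's own table of expression. The values behind its columns named KD are whole numbers of tags only with the totals of the control-labelled libraries, and those behind its columns named GFP only with the totals of the knockdown-labelled libraries. In each column 100% of the values examined were whole to within 0.005 tags with the matched library, against at most 13.1% with the next best one. The groups are therefore called by their labels throughout, control-labelled (KD in that table) and knockdown-labelled (GFP in that table, labelled exosome knockdown). A fold change is the level in control-labelled libraries over that in knockdown-labelled libraries. The study describes checks of the depletion under its own group names. These were not used here, and neither Dis3 and Rrp6 nor cell type markers were analysed here, since the files name no genes. TCs are given by their position in the dm3 genome.

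Libraries held between 33565925 and 46388382 tags, and between 165843 and 416695 of these lay on chr4. The study calls them biological replicates, and the labels do not say whether each came from its own culture, so p-values measure the spread between these samples. Each barcode occurs once in each group, but the pool of each library is not named, and if pools followed the groups then pool and group cannot be told apart.

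Over the whole chromosome, capped 5′ ends were more abundant in the control-labelled libraries. Chr4 took 0.837%, 0.750%, 0.898% and 0.805% of all tags in the control-labelled libraries, against 0.550%, 0.494%, 0.538% and 0.553% in knockdown-labelled libraries. The groups did not overlap, and the means, 0.823% ± 0.0620 in control-labelled and 0.534% ± 0.0273 in knockdown-labelled libraries (SD, n = 4 each), differed 1.54-fold (exact permutation test, two-sided, p = 0.0286, the smallest that 4 libraries against 4 can give, adjusted p = 0.0390 over 30 such comparisons). Within each of the 4 barcodes the share was higher by 0.197 to 0.348 percentage points in the control-labelled library. TPM and shares are relative to all tags of a library, and RNA was taken from whole cultures, so fewer cells with a transcript and less of it per cell cannot be told apart. The share of the long arms (2L, 2R, 3L, 3R and X) was 97.3% ± 0.184 in control-labelled libraries and 98.1% ± 0.124 in knockdown-labelled libraries (n = 4 each).

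The TCs themselves held 6151 ± 339 TPM in control-labelled libraries and 4349 ± 210 TPM in knockdown-labelled libraries (SD, n = 4 each). The net difference was 1802 TPM. The 461 TCs with the higher mean in control-labelled libraries were higher by 2292 TPM in all. The 10 with the largest differences made up 836 TPM of this, and the TC at 522443 alone made up 257 TPM. Over the other TCs the difference summed to -489.7 TPM. The ratio was 1.41 in the TCs and 2.10 for the tags on chr4 outside them. These came to 2077 ± 292 TPM in control-labelled libraries and 990 ± 64.9 TPM in knockdown-labelled libraries, which is 25.2% ± 1.72 of the tags on chr4 in control-labelled libraries and 18.5% ± 0.336 in knockdown-labelled libraries (exact permutation test, p = 0.0286, n = 4 each). The groups differed by 6.61 percentage points, and by 2.86 points without trimming at 0.1 of the summit (exact permutation test, p = 0.0286). Tags outside the TCs are those at positions with fewer than 2 tags in each library, at positions under 0.1 of a summit, or in TCs under the floor.

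Most TCs of chr4 were more abundant in control-labelled libraries and very few were less abundant. By edgeR's quasi-likelihood test at an adjusted p of 0.05, 326 TCs (60.8%) were higher and 10 (1.87%) were lower in control-labelled libraries, where over all 39028 TCs tested 29.4% were higher and 19.4% were lower. The 5 long arms lay close to each other, with 26.7% to 30.5% higher and 17.4% to 21.3% lower. The median log2 fold change on chr4 was 1.35 (quartiles 0.40 and 3.25), against medians between -0.07 and 0.04 on the long arms and 0.01 over all TCs. It was 0.52 over the 288 chr4 TCs whose mean reached 0.5 TPM in both groups. On chr4, 310 TCs (57.8%) had every control-labelled library above every knockdown-labelled library, where 27.8% of all TCs did. In 9 (1.68%) the order was the opposite, where 17.0% of all TCs showed it. The number of lower calls varied: in place of 10 there were 18 without replicate 4 labelled control, 17 with the replicate number as a block and 3 with every TC of the genome in the fit, that is all 688364 with no floor. The heterochromatic scaffolds, sequence from heterochromatin that dm3 holds apart from the arms, had 76.9% of 480 TCs higher and 1.67% lower, with a median log2 fold change of 2.83.

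**Figure D1:**
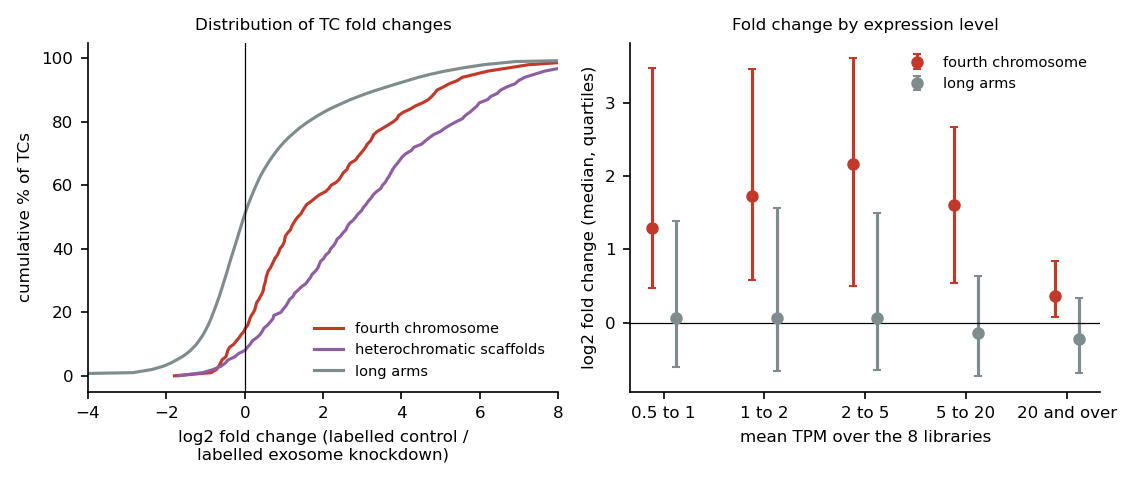
Left, cumulative percentage of TCs (y axis) against log2 fold change, labelled control over labelled exosome knockdown (x axis), for the 536 TCs of chr4, 480 TCs of heterochromatic scaffolds and 37822 TCs of the long arms. Right, median log2 fold change with quartiles (bars) by mean TPM, for chr4 and long arms. At the median the chr4 curve, at 1.35, lies between the scaffolds, at 2.83, and the long arms, at -0.02, and its medians are above those of the long arms at each level, with the smallest value, 0.36, at 20 TPM and over.

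To set chr4 against the long arms library by library, the median log2(TPM + 0.1) over long-arm TCs was subtracted from that over chr4 TCs. The difference was 0.34, 0.16, 0.42 and 0.14 in the control-labelled libraries, against -0.76, -0.99, -0.86 and -0.93 in knockdown-labelled libraries. Chr4 TCs thus had the higher median of these sets in every control-labelled library, and the lower one in every knockdown-labelled library. However, 239 chr4 TCs (44.6%) reached the floor in control-labelled libraries alone and so had to be higher there, against 20.6% of long-arm TCs. This bears on the difference, and the measure was not taken on TCs at the floor in both groups. The groups differed by 1.14 on the log2 scale (exact permutation test, p = 0.0286, adjusted p = 0.0390), and by 1.08 to 1.19 within barcodes. With 1 TPM added in place of 0.1 TPM they differed by 0.61 (exact permutation test, p = 0.0286). The same measure for a single long arm against the other arms differed between groups by -0.10 on 3R (exact permutation test, p = 0.0286) to 0.08 on X (exact permutation test, p = 0.0571). Against heterochromatic scaffolds the difference ran the other way. It was -0.23 ± 0.48 in control-labelled libraries and 0.61 ± 0.40 in knockdown-labelled libraries, a change of -0.84 that did not pass the test (exact permutation test, p = 0.0571, n = 4 each).

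**Figure D2:**
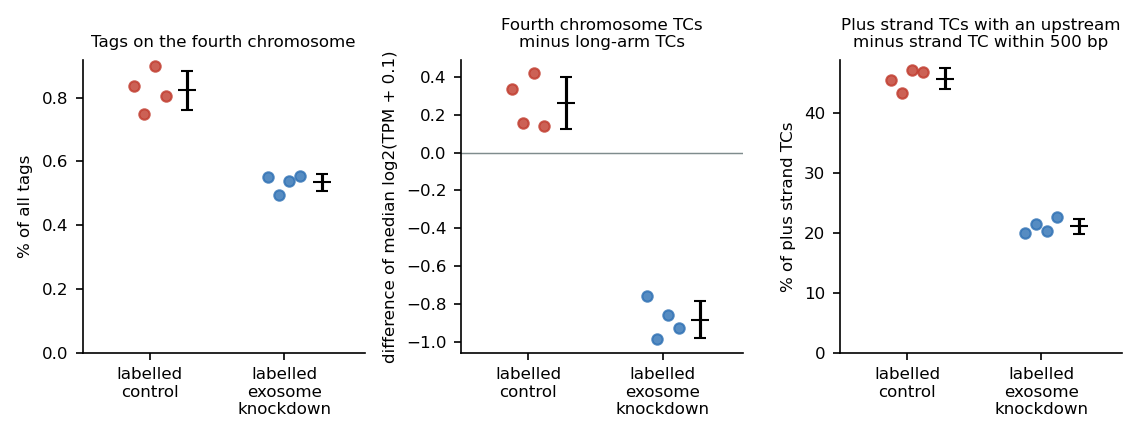
Each point is a library, and bars give the mean ± SD of 4 control-labelled libraries (left in each panel) and 4 labelled exosome knockdown (right). From left to right, the y axes are the percentage of all tags that lie on chr4, the difference of median log2(TPM + 0.1) between chr4 and long-arm TCs, and the percentage of plus strand chr4 TCs with a minus strand TC within 500 bp upstream. The last counts TCs at 0.5 TPM or more in the library, also those outside the 536. In each panel the groups do not overlap, with control-labelled means of 0.823%, 0.26 and 45.8% and knockdown-labelled means of 0.534%, -0.88 and 21.1%.

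Exosome sensitivity was computed as the study defines it, as the share of a TC's level in the columns named KD (control-labelled libraries) that was missing from the columns named GFP (knockdown-labelled libraries), set to 0 where negative. The median over chr4 TCs was 0.618, and with same-numbered libraries it was 0.651 ± 0.0547 (SD, n = 4). With the groups taken as the labels name them, an alternative chosen after the data were seen, the median was 0, and 75 TCs had a sensitivity above 0. In the direction of the study's table, sensitivity was above 0.75 for 229 TCs (42.7%) and below 0.25 for 130 TCs (24.3%). Of the 229, 187 reached the floor in control-labelled libraries alone and so had to be higher there. On the long arms the medians were between 0 and 0.0502, with 17.4% of TCs above 0.75 and 62.3% below 0.25. The heterochromatic scaffolds had a median of 0.864.

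Many chr4 TCs reached the floor of 0.5 TPM in a single group. The mean of both groups reached it for 288 TCs, that of the control-labelled libraries alone for 239, and that of the knockdown-labelled libraries alone for 9. A TC that reached it in a single group had to differ to be included, so these counts are a description only. Among the TCs at the floor in both groups, 114 (39.6%) were higher and 8 (2.78%) lower in control-labelled libraries on chr4, beside 15.6% and 20.8% on the long arms. Their median log2 fold change was 0.52 on chr4 and -0.16 on the long arms, and their median sensitivity was 0.322 on chr4 and 0 on the long arms, with 14.6% of TCs above 0.75 on chr4 and 4.55% on the long arms. In single libraries, 461 to 508 of the 536 TCs reached 0.5 TPM in control-labelled libraries, against 250 to 312 in knockdown-labelled libraries. At least 1 tag was found at 535 or 536 TCs in control-labelled libraries and at 479 to 517 in knockdown-labelled libraries.

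The difference was found at each level of expression and was smallest at the strongest TCs. Between 0.5 and 1 TPM, 124 of 222 TCs (55.9%) were higher, beside 28.9% on the long arms, and between 2 and 5 TPM 62 of 90 (68.9%) were higher, beside 32.7%. Summed over the TCs of a level, the weakest held 222 TPM in control-labelled libraries and 79.9 TPM in knockdown-labelled libraries, a ratio of 2.78. The ratio was 3.12 between 2 and 5 TPM, with 423 TPM in control-labelled libraries and 136 TPM in knockdown-labelled libraries. The 50 TCs at 20 TPM and over held most of the signal, 4640 TPM in control-labelled libraries and 3817 TPM in knockdown-labelled libraries, a ratio of 1.22. Of these, 22 (44.0%) were higher and 4 lower, where 19.6% of long-arm TCs at that level were higher and 33.6% lower. On the long arms the ratios were 1.30 at each of the weakest level and the level from 2 to 5 TPM, and 0.946 at 20 TPM and over. Relative to long-arm TCs of the same level, the control-labelled libraries exceeded knockdown-labelled libraries by 1.1, 1.46, 1.63, 1.49 and 0.61 on the log2 scale from the weakest level to the strongest (exact permutation tests, each p = 0.0286, n = 4 each, adjusted p = 0.0390). The levels were not tested against each other. Weak levels also hold TCs that reached the floor in control-labelled libraries alone, and these had to be higher there.

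The strongest TCs are given by position alone, since the files name no gene. The highest mean was at chr4:522442-522443 on the plus strand, a TC 2 bp wide with 88.1% of its tags at the summit. It had 618, 606, 640 and 554 TPM in control-labelled libraries, against 306, 193, 221 and 670 TPM in knockdown-labelled libraries. Replicate 4 labelled exosome knockdown stood above every other library there, so the groups overlapped and the log2 fold change of 0.79 ± 0.32 (SE) did not pass (edgeR, adjusted p = 0.0625). It passed in several alternatives. Without that library it was 1.28 (edgeR, adjusted p = 0.000299), with the replicate number as a block 0.96 (adjusted p = 0.0204), with the barcode as a block 0.95 (adjusted p = 0.0165), in DESeq2 0.80 (adjusted p = 0.0409) and with every TC of the genome in the fit 0.86 (adjusted p = 0.000579). The next, at chr4:951290-951348 on the minus strand, is broad, with 16.8% of its tags at its summit. It had 556, 460, 403 and 469 TPM in control-labelled libraries, against 402, 328, 411 and 370 TPM in knockdown-labelled libraries. These ranges overlapped (log2 fold change 0.29 ± 0.16, edgeR, adjusted p = 0.156).

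Of the 10 TCs with the highest mean, 2 were higher in control-labelled libraries, 3 were lower and 5 passed in neither direction. Over all TCs tested 29.4% were higher and 19.4% lower, and on the long arms at 20 TPM and over 19.6% and 33.6%. The counts of these 10 are near those long-arm shares and are a description only. Among the 50 chr4 TCs at that level, 44.0% were higher and 8% lower. The minus strand TC at chr4:487413-487449 had 178, 180, 151 and 112 TPM in control-labelled libraries, against 62.7, 51.3, 59.5 and 50.9 TPM in knockdown-labelled libraries. Its groups were well apart, with a log2 fold change of 1.44 ± 0.20 (edgeR, adjusted p = 0.000121). The minus strand TC at chr4:1047657-1047741 had 213, 188, 184 and 200 TPM in control-labelled libraries, against 102, 80.1, 80.05 and 88.5 TPM in knockdown-labelled libraries (log2 fold change 1.13 ± 0.14, edgeR, adjusted p = 7.44e-05). The minus strand TC with its summit at 1143961 had no overlap between groups, with 120 to 160 TPM in control-labelled libraries and 87.5 to 107 TPM in knockdown-labelled libraries, yet missed the threshold (log2 fold change 0.40, edgeR, adjusted p = 0.0632), and passed it without replicate 3 labelled control (log2 fold change 0.48, edgeR, adjusted p = 0.0407), with totals of all tags alone (adjusted p = 0.0274) and at a floor of 1 TPM (adjusted p = 0.0411). The TCs with summits at 87828 on the minus and 1144816 on the plus strand had lower means in control-labelled libraries, 277 and 129 TPM, than in knockdown-labelled libraries, 407 and 164 TPM, with overlapping groups and no call. The first was called without replicate 4 labelled control (log2 fold change -0.75, edgeR, adjusted p = 0.0445) and with the replicate number or the barcode as a block (adjusted p = 0.0408 and 0.0449), and the second without replicate 4 labelled exosome knockdown (log2 fold change -0.53, edgeR, adjusted p = 0.0198).

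On chr4, 7 TCs met the rule for named falls, that is a lower call in control-labelled libraries, no overlap and a mean of 1 TPM or more in the higher group, where 275 met it for rises. The share of all TCs that met this rule was not computed. By lack of overlap alone, 27.8% of all TCs were higher and 17.0% lower. TCs at the floor in control-labelled libraries alone had to be higher, and 202 of these 239 on chr4 were so with no overlap. The third strongest TC of chr4, at chr4:1052492-1052505 on the plus strand, was among the 7. It had 281, 314, 345 and 288 TPM in control-labelled libraries, against 438, 414, 566 and 485 TPM in knockdown-labelled libraries, and fell by 0.67 on the log2 scale (SE 0.16, edgeR, adjusted p = 0.00445). The TC with its summit at 591408 on the minus strand fell by 0.55 (116 ± 17.7 TPM in control-labelled libraries and 164 ± 22.0 TPM in knockdown-labelled libraries, edgeR, adjusted p = 0.0133), and with every TC of the genome in the fit its adjusted p was 0.216. The TC at 997422 on the plus strand fell by 0.43, with 121 ± 11.1 TPM in control-labelled libraries and 159 ± 7.04 TPM in knockdown-labelled libraries (SD, n = 4 each, edgeR, adjusted p = 0.0199). Without replicate 1 labelled control its adjusted p was 0.0507, without replicate 2 labelled exosome knockdown it was 0.0573, and with every TC in the fit it was 0.368.

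The other named falls were smaller in level. The minus strand TC at 64380 had 20.6, 20.0, 22.4 and 20.5 TPM in control-labelled libraries, against 34.8, 30.7, 30.0 and 29.7 TPM in knockdown-labelled libraries, with little spread in either group (log2 fold change -0.62 ± 0.14, edgeR, adjusted p = 0.00424). With every TC in the fit its adjusted p was 0.239. A pair of plus strand TCs 201 bp apart fell furthest. The first, with its summit at 466166, had 1.71 ± 0.213 TPM in control-labelled libraries and 3.46 ± 0.973 TPM in knockdown-labelled libraries (log2 fold change -1.06). The second, a single position at 466367, had 2.51 ± 0.478 TPM in control-labelled libraries and 4.51 ± 0.801 TPM in knockdown-labelled libraries (log2 fold change -0.88), and was not called with every TC in the fit (edgeR, adjusted p = 0.135). The last, the position 150398 on the minus strand, was called at an adjusted p of 0.0473 (edgeR) and lost the call when replicate 1, 2 or 3 of either group was left out, with an adjusted p of 0.0671 to 0.124. It was not called with the replicate number as a block (0.0572), the barcode as a block (0.0801), totals of all tags alone (0.0702) or every TC in the fit (0.368), all adjusted p from edgeR.

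The largest rises were at weak TCs with few or no tags in the knockdown-labelled libraries. Of the 8 named, 7 had no tag in any of these 4 libraries, for which a floor of 3 tags over the group, 0.0197 TPM, was used. No TC of chr4 was without tags in the control-labelled libraries. The TC at chr4:359658-359714 on the plus strand had 1.37, 1.68, 5.39 and 0.625 TPM in control-labelled libraries, and was at least 115-fold higher there. On the other strand, 356 bp downstream of its summit, the position 360042 had 0.652, 1.08, 2.35 and 0.272 TPM in control-labelled libraries and was at least 55.3-fold higher. Both sites were named for the size of their rise, so that they differed alike follows from this choice. Replicate 3 had the highest and replicate 4 the lowest level of the control-labelled libraries at both. The share of all tags on chr4 was also highest in replicate 3, at 0.898%.

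Replicate 3 was also the highest and replicate 4 the lowest of the control-labelled libraries at the other 5 TCs without tags in the knockdown-labelled libraries. The plus strand TCs with summits at 204503 and 204462, 41 bp apart, had means of 1.35 TPM each in control-labelled libraries, and both were at least 68.5-fold higher. The minus strand TCs at 711874, 452479 and 155740 had 1.16, 1.11 and 1.02 TPM in control-labelled libraries and were at least 59.2-fold, 56.5-fold and 51.8-fold higher. At 452479 the spread was wide, as replicate 3 labelled control had 2.78 TPM and replicate 4 had 0.0543 TPM. The eighth, at chr4:538196-538216 on the plus strand, was more even. It had 4.30, 3.1, 4.55 and 3.42 TPM in control-labelled libraries, against 0.0228, 0, 0 and 0.0273 TPM in knockdown-labelled libraries. These are 646 against 2 tags, a ratio of TPM of 297 with a 95% counting interval of 82.0 to 2460. Counting intervals and floors cover counting error only.

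**Figure D3:**
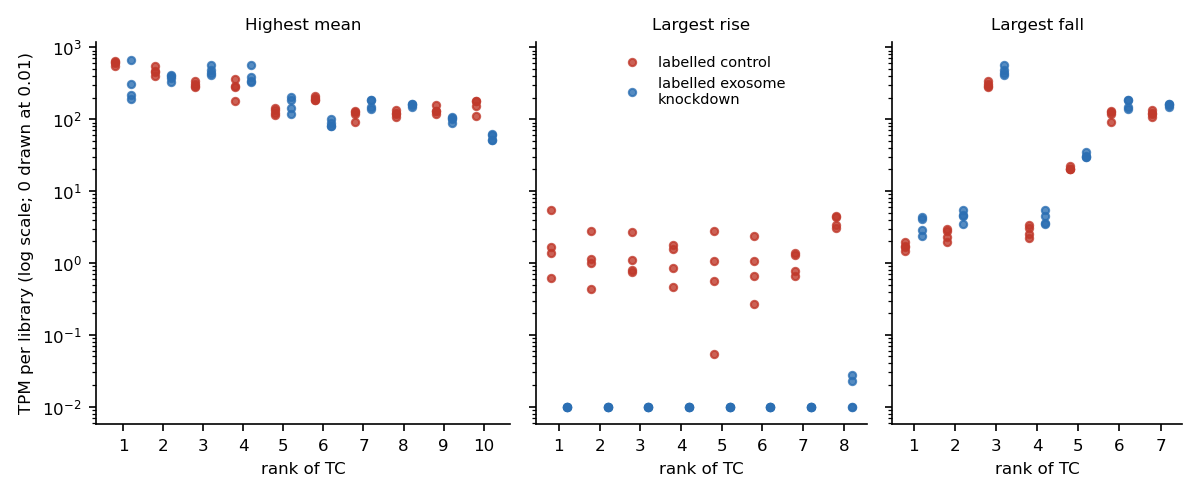
TPM in each library (y axis, log scale, with 0 drawn at 0.01) for the 10 TCs with the highest mean, the 8 named rises and the 7 named falls, in order of rank along the x axis, with control-labelled libraries to the left and knockdown-labelled libraries to the right of each tick. At the first TC of the left panel 1 knockdown-labelled library, at 670 TPM, lies above all 4 labelled control, and 7 TCs of the middle panel have every knockdown-labelled library at 0.

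At the floor itself, the TCs just inside were on the minus strand, with summits at 418510 (mean 0.501 TPM) and 1224080 (mean 0.502 TPM). Just outside lay 135019 on the plus strand and 577634 on the minus strand, each with a mean of 0.499 TPM. The TC at 135019 had 0.499 to 2.03 TPM in control-labelled libraries, against 0 in every knockdown-labelled library. The TC at 577634 had 0.604 to 1.68 TPM in control-labelled libraries, against 0 to 0.109 TPM in knockdown-labelled libraries.

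Where start sites crowd together, TCs were sorted by place. In order of mean TPM, a TC was leading when no leading summit lay within 500 bp on either strand, and the rest were placed by strand and side of their nearest leading TC. The group of the libraries does not enter. TCs on the opposite strand and upstream, the position of divergent promoters and PROMPTs, were called most often. Of these 61 TCs, 51 (83.6%) were higher in control-labelled libraries and none lower, with a median log2 fold change of 2.97 and a median sensitivity of 0.876. The 64 opposite-strand TCs downstream had 43 (67.2%) higher and 0 lower. Leading TCs had 127 of 228 (55.7%) higher and 8 lower, same-strand TCs upstream 42 of 75 (56.0%) higher and 1 lower, and same-strand TCs downstream 63 of 108 (58.3%) higher and 1 lower. On the long arms the 5 classes had 36.1%, 32.2%, 28.6%, 24.1% and 25.04% higher in the same order. Lower there were 19.9%, 14.7%, 21.3%, 21.6% and 18.2%. Relative to long-arm TCs of the same class, control-labelled libraries exceeded knockdown-labelled libraries by 1.74 on the log2 scale for opposite-strand upstream TCs and by 1.00 for leading TCs, with 1.25 for opposite-strand downstream, 1.1 for same-strand upstream and 1.03 for same-strand downstream TCs (exact permutation tests, each p = 0.0286, n = 4 each). These differences between classes were not themselves tested. The classes also hold TCs at the floor in control-labelled libraries alone, of which 212 of 239 (88.7%) were higher. Classes were not counted among TCs at the floor in both groups, so their order there is not known.

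**Figure D4:**
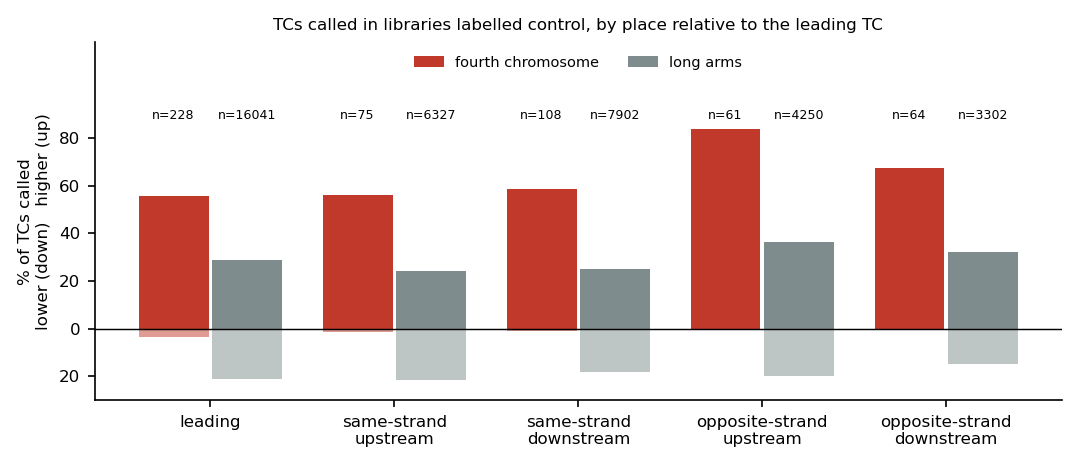
Percentage of TCs called higher (up) and lower (down) in control-labelled libraries at an adjusted p of 0.05 (y axis), by place relative to the leading TC (x axis), for chr4 and for the long arms, with the number of TCs above each bar. Opposite-strand upstream TCs of chr4 have the tallest bar, at 83.6%, against 36.1% for that class on the long arms.

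Divergent initiation on chr4 was seen far more often in the control-labelled libraries. Of plus strand TCs at 0.5 TPM or more in a library, 45.5%, 43.4%, 47.3% and 46.9% had a minus strand TC within 500 bp upstream in control-labelled libraries, against 20.0%, 21.5%, 20.3% and 22.7% in knockdown-labelled libraries. These shares take every TC at 0.5 TPM or more in that library whose mean over the 8 libraries reached 0.2 TPM. They thus also hold TCs outside the 536, which entered through libraries where they were above their mean. The shares on the long arms were taken alike. The groups were apart by 24.7 percentage points (exact permutation test, p = 0.0286), and by 20.7 to 27.3 points within barcodes. They were apart by 14.1 points at a floor of 0.2 TPM, 14.6 points with merging within 10 bp and 15.5 points without trimming at 0.1 of the summit (exact permutation tests, each p = 0.0286). The settings of merging and trimming counted only TCs with a mean of 0.5 TPM or more. Their effect therefore cannot be told apart from that of the narrower set of TCs. On the long arms the shares were 40.8% ± 0.440 in control-labelled libraries and 32.9% ± 0.372 in knockdown-labelled libraries (SD, n = 4 each). Chr4 was therefore 4.99 ± 2.08 percentage points above the long arms in control-labelled libraries and -11.7 ± 1.07 points from them, that is below, in knockdown-labelled libraries, and this difference of 16.7 points was itself tested (exact permutation test, p = 0.0286, n = 4 each, adjusted p = 0.0390). The number of TCs that pass in a library bears on this share. Between 295 and 387 plus strand TCs passed in control-labelled libraries, against 130 to 165 in knockdown-labelled libraries, and the part of this density in the share was not tested. With TCs taken over all libraries the share on chr4 was 37.6%, within the range of 33.5% to 38.4% on the long arms, and at 250 bp it was 27.9%, against 20.2% to 24.0%.

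Over all libraries 97 plus strand TCs had such a partner, at a median distance of 145 bp. Both TCs were higher in control-labelled libraries in 63 pairs, a single TC in 29 and neither in 5. Both were higher in 64.9% of these pairs, where 23.1% of the 7083 such pairs of all TCs and 22.0% of those on the long arms had both higher. Pairs also hold TCs at the floor in control-labelled libraries alone, which had to be higher there. Such TCs were 44.6% of all on chr4 and 20.6% on the long arms. A minus strand TC could be the partner of several plus strand TCs, as that at 578476 was. Pairs were not counted among TCs at the floor in both groups, so these shares are a description only. The pair with the highest level on its weaker strand lay at 899773 (plus) and 899694 (minus), 79 bp apart. Its plus strand TC had 21.2, 18.2, 26.2 and 29.2 TPM in control-labelled libraries, against 10.7, 9.24, 6.03 and 6.15 TPM in knockdown-labelled libraries (log2 fold change 1.51 ± 0.24, edgeR, adjusted p = 0.000402). Its minus strand TC had 27.5, 17.5, 24.6 and 25.8 TPM in control-labelled libraries, against 25.3, 15.6, 15.4 and 20.7 TPM in knockdown-labelled libraries. Here the groups overlapped (log2 fold change 0.27 ± 0.20, edgeR, adjusted p = 0.271), so a call was made on the plus strand alone. The difference between the strands was not tested.

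The pair at 202555 (plus) and 202468 (minus), 87 bp apart, had a wider gap between its strands. The plus strand TC, upstream of the leading minus strand TC, had 16.5, 22.1, 34.7 and 15.3 TPM in control-labelled libraries, against 0.478, 0.506, 0.468 and 0.437 TPM in knockdown-labelled libraries. Its level was very even in the knockdown-labelled libraries and the log2 fold change was 5.50 ± 0.32 (edgeR, adjusted p = 2.04e-06). The leading minus strand TC had 21.9, 34.0, 60.2 and 20.6 TPM in control-labelled libraries, against 10.2, 21.5, 13.6 and 4.48 TPM in knockdown-labelled libraries. These groups overlapped, and the log2 fold change of 1.37 ± 0.47 passed (edgeR, adjusted p = 0.0330) but lost its call without replicate 2 or 3 labelled control or replicate 1, 3 or 4 labelled exosome knockdown, with an adjusted p of 0.0526 to 0.104, and with the barcode as a block (adjusted p = 0.0608). In the third pair, the position 578850 on the plus strand had 10.4 ± 4.85 TPM in control-labelled libraries and 7.21 ± 1.37 TPM in knockdown-labelled libraries (SD, n = 4 each, edgeR, adjusted p = 0.203). Its partner at 578476, 374 bp away on the minus strand, had 82.5 ± 3.39 TPM in control-labelled libraries and 58.9 ± 8.69 TPM in knockdown-labelled libraries. That call (log2 fold change 0.45, edgeR, adjusted p = 0.0371) was lost without replicate 1, 2 or 4 labelled control or replicate 3 or 4 labelled exosome knockdown, with an adjusted p of 0.0656 to 0.103. It was also lost with the barcode as a block (0.0506), DESeq2's size factors (0.0512) and every TC in the fit (0.300), all adjusted p from edgeR.

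Upstream antisense tags were also counted without reference to TCs, in the 500 bp upstream of leading TCs with a mean of 5 TPM or more and on the opposite strand. Of 72 such TCs on chr4, 53 had a window with at least 10 tags and no other leading summit. In 29 windows (54.7%) tags were higher in control-labelled libraries and in 1 (1.89%) lower, where 35.1% and 17.4% of all 4875 windows tested were. The minimum of 10 tags was taken over all 8 libraries together. A window could pass it through control-labelled libraries alone and then had to be higher there. The window upstream of 464492 did so, with 16 tags against 0. Windows were not counted by the group in which they passed, so these counts are a description only. The median log2 fold change was 1.51 on chr4 and 0.37 on the long arms. Of the 29 windows, 20 lay at a leading TC that was higher as well, 9 at one with no call and 0 at one that was lower. The fold change of the window exceeded that of its leading TC by a median of 0.67 on the log2 scale on chr4 and 0.45 on the long arms. By arm this median ran from 0.39 on 3L to 0.61 on X, near the value of chr4, and the difference was not tested.

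The window with the largest change was upstream of the minus strand TC at 202468, where it holds the divergent TC described above. It had 32.3, 41.3, 68.6 and 28.9 TPM in control-labelled libraries, against 0.934, 0.655, 0.936 and 0.847 TPM in knockdown-labelled libraries (log2 fold change 5.61 ± 0.28, edgeR, adjusted p = 3.91e-09). The window upstream of the plus strand TC at 1147234 had 1.75, 3.26, 4.83 and 0.408 TPM in control-labelled libraries, against 0.0683, 0.0596, 0.156 and 0 TPM in knockdown-labelled libraries. Its groups did not overlap (log2 fold change 5.06 ± 0.77, edgeR, adjusted p = 7.57e-05). The window upstream of the minus strand TC at 1167152 held 22 tags in control-labelled libraries and 0 in knockdown-labelled libraries, where the leading TC itself had no call. The only lower window, upstream of 1081478, rests on 2 tags in control-labelled libraries and 12 in knockdown-labelled libraries. It was not called without replicate 1 or 3 labelled control or replicate 2 or 4 labelled exosome knockdown, and without replicate 3 labelled exosome knockdown there were 2 lower windows.

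**Figure D5:**
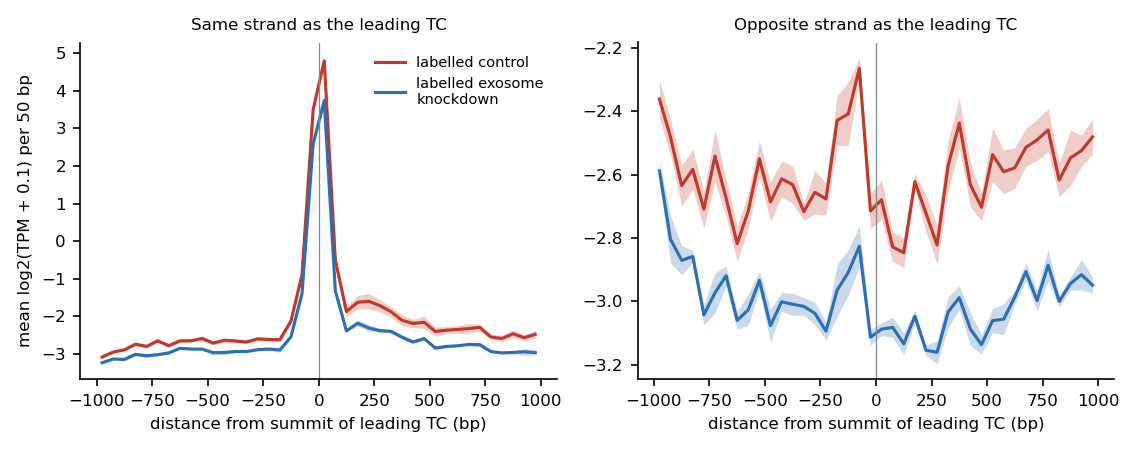
Mean log2(TPM + 0.1) per 50 bp (y axis) around the summits of the 72 leading chr4 TCs with at least 5 TPM, by distance in bp from the summit (x axis, negative is upstream), on the same strand and on the opposite strand. Lines are means and bands the SD of 4 control-labelled libraries and of 4 labelled exosome knockdown. On the opposite strand both groups have a local maximum upstream of the summit, at -2.26 in control-labelled libraries and -2.83 in knockdown-labelled libraries between 100 and 50 bp upstream.

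Along the chromosome the difference was uneven. Tags extended from position 43024 to 1323860, and there were 418 TCs per Mb between them, against 295 to 352 on the long arms. Neighbouring summits were a median of 241 bp apart and the longest stretch without a summit was 76668 bp, between 252056 and 328724. In segments of 100 kb, the total of all tags, inside TCs and outside, was higher in every control-labelled library than in any labelled exosome knockdown in 10 of the 13 segments with TCs. In these the ratio of means was between 1.48 and 2.09. The richest segment, from 500001 to 600000, held 118 TCs, of which 73 were higher and 2 lower, with 1785 ± 108 TPM in control-labelled libraries and 905 ± 268 TPM in knockdown-labelled libraries (SD, n = 4 each). Replicate 4 labelled exosome knockdown had 1285 TPM there and the others 683 to 896 TPM, and this segment holds the strongest TC, at 522443. From 700001 to 800000 there were 14 TCs, 12 of them higher, with a median log2 fold change of 4.21. Over all TCs tested 29.4% were higher and 19.4% lower. Counts by segment also hold TCs at the floor in control-labelled libraries alone, which had to be higher there, and are a description only.

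The groups overlapped in the other 3 segments. In the first 100000 bp the total was 523 ± 100.04 TPM in control-labelled libraries and 564 ± 101.5 TPM in knockdown-labelled libraries, although 14 of its 25 TCs were higher and 2 lower. From 1000001 to 1100000 it was 962 ± 53.4 TPM in control-labelled libraries and 936 ± 104 TPM in knockdown-labelled libraries, with 12 of 33 TCs (36.4%) higher and 2 (6.06%) lower. The share of higher TCs there is near that over all TCs, 29.4%, where 19.4% were lower. From 1100001 to 1200000 it was 386 ± 49.97 TPM in control-labelled libraries and 325 ± 48.5 TPM in knockdown-labelled libraries (SD, n = 4 each), with 9 of 18 TCs higher and 0 lower.

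The shape of initiation did not show a difference of this kind. The TCs of chr4 had a median width of 26.5 bp, between 1 and 197 bp, and 71 were a single position, where the long arms had median widths of 21 to 23 bp. The median share of a TC's tags at its summit was 36.1% ± 1.84 in control-labelled libraries and 37.5% ± 1.58 in knockdown-labelled libraries (exact permutation test, p = 0.314, n = 4 each), a difference of -1.39 percentage points. Its lowest and highest values were 34.5% and 38.6% in control-labelled libraries, against 35.4% and 39.2% in knockdown-labelled libraries, and a p that misses the threshold does not show that they were alike. On the long arms it was 38.4% ± 0.336 in control-labelled libraries and 38.7% ± 0.786 in knockdown-labelled libraries (SD, n = 4 each).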

How the data were processed

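CAGE was performed on total RNA of S2 cells, 4 libraries per label. The authors trimmed the reads, filtered them by quality in 50% of their bases, mapped them to dm3 with Bowtie 1.1.1 with at most 2 mismatches and kept unique matches. The deposited values are counts of tags by the position and strand of their first base, not normalized, and are the unit used here. Start sites in identical repeats are therefore not counted.

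TCs were called as described and counted in each library. Changes were tested on counts over all 39028 TCs with edgeR 4.0.16 (quasi-likelihood, TMM, factors 0.905 to 1.07, R 4.3.3, limma 3.58.1) at a Benjamini-Hochberg adjusted p of 0.05, and DESeq2 1.42.0 was an alternative. Windows were tested alike. Values with a single number per library were tested by exact permutation, two-sided, of 4 libraries against 4, for which 0.0286 is the smallest p. Leaving out a library allows no p under 0.0571, so those values carry no test. Alternatives were other scalings, blocks, floors, merging distances and left-out libraries. Tables were made with pandas 2.3.3 and numpy 2.4.6 (Python 3.11.15), tests with scipy 1.17.1 and plots with matplotlib 3.10.9. The calling of TCs and the fits were tested on simulated data. With 200 of 39028 TCs changed, the fit recovered 5 of 50 changes of 2-fold, 29 of 50 of 4-fold and 91 of 100 of 8-fold. There were 12 false calls. Small changes were thus often missed in that setting, and a TC without a call is not shown to be unchanged.

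TCs named are the 10 with the highest mean, the 8 largest rises and 8 largest falls among TCs called with no overlap and at least 1 TPM in the higher group (only 7 falls existed), the 3 divergent pairs with the highest weaker strand, the 3 windows with the largest rise, and the 2 TCs on each side of the floor. The window upstream of 1081478 was named after its values were seen. The members and lists were chosen with earlier results of these data known. No libraries were copies of each other, as the chi-square per degree of freedom between libraries of a group was 14.5 to 42.8 over TCs of chr4. Gene names and sequences were not used here, as only an annotation of another build was given.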

Additional observations from a re-analysis of the deposited data

How the results depend on the processing

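TCs higher in control-labelled libraries numbered 296 to 365 under 18 of 19 alternatives and 204 of 314 at a floor of 1 TPM. TCs lower numbered 3 with every TC of the genome in the fit, and 7 to 18 when single libraries were left out. Windows higher stayed between 26 and 30, and windows lower between 0 and 2: there were 0 with the barcode as a block, 0 with no minimum of tags, and 0 to 2 without single libraries. The summit share, which had not passed its test, reversed to 0.79 percentage points without trimming (exact permutation test, p = 0.257), and kept its sign in 13 alternatives. The share of tags on chr4 (0.264 to 0.313 percentage points), the level against the long arms (0.61 to 1.28), the tags outside TCs (2.86 to 7.80 points), the divergent share (14.1 to 25.9 points) and the sensitivity (0.596 to 0.666) kept their direction under changes of scaling, floor, clustering and libraries. With single libraries left out these were 0.264 to 0.313, 1.09 to 1.19, 5.89 to 7.26, 24.2 to 25.4 and 0.596 to 0.666, higher TCs 296 to 321, and the summit share -2.23 to -0.84. The median sensitivity was 0 with the groups as the labels name them, an alternative chosen after seeing the data. No scaling moved the median of all TCs by more than 0.1. Of 442 alternative values of 30 named TCs, 399 kept their call, 30 lost it, 13 gained it and none changed sign. The causes of these changes were not tested.

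With the replicate number as a block, 339 TCs of chr4 were higher and 17 lower, against 326 and 10 without it. Deviations of same-numbered libraries correlated at 0.0885, 0.188, 0.260 and 0.400 over TCs, and those of differently numbered ones at -0.336 to 0.120. Each knockdown-labelled library correlated best with the control-labelled library of its number, as did replicates 2, 3 and 4 labelled control with theirs. Replicate 1 labelled control correlated best with replicate 3 labelled exosome knockdown (0.120). Whether the libraries are paired was not tested.

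At depths of 33565925 to 46388382 tags, a count of 0 allows up to 0.0647 to 0.0894 TPM in a library, so weak TCs carry the widest errors.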
